A study of Mus musculus with 6 samples.

Results

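Glycolysis and hypoxia genes were followed in whole pancreas of mouse embryos at e16.5. They were taken by symbol from a list of 34 genes, and all 34 were found among the 54735 gene symbols of the count tables. The list holds 17 glycolytic enzymes, 6 transporters and regulators of glycolytic flux, and 11 regulators and targets of the response to low oxygen. The rule uses symbols alone and no measured value, but the list was proposed with earlier results of these data known. The 3 control pancreata carried the Neurog3:cre driver alone, and the 3 RARdn pancreata carried the same driver with the RARdnfl/fl allele. Both groups had a mixed C57Bl6 and 129SV background. The name RARdn commonly stands for dominant-negative RAR, a retinoic acid receptor form, but its letters are not explained in the labels, and gene counts offer no check of the allele. Neurog3 is active in endocrine progenitors, so the driver addresses a minority of the cells in a dissected pancreas, and in such bulk samples fewer cells of a type cannot be told apart from less RNA per cell.

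Glycolysis turns glucose into pyruvate in a chain of enzymes that begins with hexokinase, and lactate dehydrogenase then interconverts pyruvate and lactate. Most steps can be carried out by several isozymes, which are encoded by separate genes and used in different cell types. When oxygen is short, the transcription factor HIF-1 accumulates, binds short DNA elements and raises many of these enzymes together with glucose transporters, the angiogenic factor Vegfa and the prolyl hydroxylases that in turn mark HIF for destruction. In the embryonic pancreas, oxygen supply and HIF activity are known to bear on how progenitors differentiate.

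The libraries held 35256531 to 52015498 counts in genes, and RARdn 3 had the fewest counts and the fewest genes with a count (23995, against 26437 to 28517 in the others). Reads outside genes made up 7.60% to 8.99% of all reads in the controls and 2.90% to 5.30% in the RARdn libraries. The tissue label fits its markers, since all 17 acinar markers had counts in every library. Their share of the counts was 17.03%, 16.1% and 17.1% in control 1, 2 and 3 but 6.42%, 19.0% and 24.04% in RARdn 1, 2 and 3. Summed liver markers (10 genes) lay at 383 to 413 CPM (counts per library total, scaled with TMM factors) in controls and at 1537, 605 and 449 CPM in RARdn 1, 2 and 3. The liver marker Apoc3 had no count in control 2, RARdn 2 and RARdn 3, and Apoa2 had none in RARdn 3. Summed mesenchyme markers (11 genes) lay at 5331 to 7225 CPM in controls against 8832 to 10039 CPM in RARdn libraries. By Xist and Ddx3y, control 1 and 3 were female and the other 4 embryos male, so that sex is partly confounded with genotype. None of the members was at 0 in any library.

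The HIF-1 element has the core ACGTG or GCGTG. The 250 bases before the start of transcription were searched for this core on both strands in the RefSeq promoter table (GRCm38.p6), which holds 32 of the 34 genes (all but Slc2a3 and Ndrg1). For a gene with several starts, the one nearest the 5′ end of the GENCODE M21 gene was used. At least 1 core was found in 25 of 32 windows (78.1%), against 38.6% of all 32851 promoter windows of that length. The 2 sets are unlike, since each member has 1 window and the full set holds every window of a gene. The list was also made up of glycolysis and hypoxia genes, so this share is no test. The median GC content was 61.0% in the members' windows and 52.4% in all windows, and the part of base composition in this difference was not tested. The core was present in 11 of 17 enzyme windows and in 14 of 15 windows of the other genes. Other starts were left unsearched for the enzymes Hk1, Pfkm, Aldoa, Aldoc, Eno1, Pkm and Ldha. The same holds for Pdk1, Pfkfb3 and Vegfa among the other genes. The part of this choice in the shares was not tested. By direction of the expression values, 7 of the 11 enzymes with a log2 fold change below 0 had the core, and so had 4 of the 6 above 0. Among the other genes the core was in 6 of 6 windows below 0 and 8 of 9 above 0. Cores were counted by their first base, so the palindrome CACGTG, which is also the E-box bound by other factors, counts as 2. Below are windows of 3 genes whose levels were lower in every RARdn library than in any control (Ldha, Pgk1 and Pdk1), of the gene that was higher in every RARdn library (Slc16a3) and of a hypoxia target whose groups overlapped (Bnip3). Each reads 5′ to 3′ on the gene's strand and ends 1 base before the start, with the core of either strand in capitals.
Ldha (chr7:46845554-46845803, plus strand): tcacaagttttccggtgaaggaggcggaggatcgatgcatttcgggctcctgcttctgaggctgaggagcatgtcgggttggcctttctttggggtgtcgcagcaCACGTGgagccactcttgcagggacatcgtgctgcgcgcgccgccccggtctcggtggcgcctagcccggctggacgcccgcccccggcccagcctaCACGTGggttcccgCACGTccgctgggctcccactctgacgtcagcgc
Pgk1 (chrX:106186850-106187099, plus strand): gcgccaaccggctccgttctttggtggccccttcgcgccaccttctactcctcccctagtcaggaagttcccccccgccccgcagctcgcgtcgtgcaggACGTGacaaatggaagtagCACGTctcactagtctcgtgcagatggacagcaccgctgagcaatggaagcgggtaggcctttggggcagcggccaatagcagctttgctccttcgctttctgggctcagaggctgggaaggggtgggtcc
Pdk1 (chr2:71872974-71873223, plus strand): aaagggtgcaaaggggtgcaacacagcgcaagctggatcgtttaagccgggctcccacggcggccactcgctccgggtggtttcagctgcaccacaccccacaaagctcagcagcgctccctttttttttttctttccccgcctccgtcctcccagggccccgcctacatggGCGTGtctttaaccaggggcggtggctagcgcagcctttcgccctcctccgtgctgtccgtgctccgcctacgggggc
Slc16a3 (chr11:120948817-120949066, plus strand): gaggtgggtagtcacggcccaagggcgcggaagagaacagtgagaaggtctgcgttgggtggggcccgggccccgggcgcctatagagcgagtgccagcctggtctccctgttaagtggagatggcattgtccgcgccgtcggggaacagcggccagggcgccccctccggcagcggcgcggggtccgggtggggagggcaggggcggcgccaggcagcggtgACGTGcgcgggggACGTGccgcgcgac
Bnip3 (chr7:138909507-138909756, minus strand): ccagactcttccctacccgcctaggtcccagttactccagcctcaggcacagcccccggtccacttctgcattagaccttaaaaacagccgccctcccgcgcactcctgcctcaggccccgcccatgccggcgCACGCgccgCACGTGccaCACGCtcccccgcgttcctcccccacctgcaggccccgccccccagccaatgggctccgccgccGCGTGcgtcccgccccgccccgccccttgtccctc
Ldha held 5 cores, of which 4 came from 2 copies of CACGTG. Pgk1 and Slc16a3 held 2 each, Pdk1 held 1, and Bnip3 held 5.

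RARdn pancreas was compared with control pancreas to ask how these genes differed with the genotype. The abundant enzymes of the pathway had lower mean levels in RARdn pancreas, while most low-abundance isozymes had slightly higher ones. The 17 other members were split, with 10 log2 fold changes above 0 and 7 below. No member passed the test on all 6 libraries. In edgeR's quasi-likelihood test, 0 of 34 members reached an adjusted p under 0.05, a threshold that 4.02% of the 19070 genes tested passed. All 34 members passed the filter on low counts. At an unadjusted p under 0.05, 9 members were lower (10.2% of all genes tested were) and 5 higher (12% were), together 41.2% of the list against 22.2% of all genes tested. DESeq2 called 4 members (Pgk1, Pkm and Tpi1 lower and Slc16a3 higher), where its background was 8.99% of genes (3.99% higher and 5% lower). Without a filter on low counts edgeR called Eno2 and Slc16a3 higher, with a background of 6.92% (3.31% higher and 3.61% lower). With a term for sex added, edgeR called 61 of all genes and no member, the smallest adjusted p of a member being 0.180. In TMM-scaled CPM, the groups did not overlap for 9 of 34 members, or 26.5%, which is close to the 27.6% of all genes tested. The median log2 fold change was -0.33 over the 17 enzymes and 0.15 over the 17 other genes, against 0.00051 over all genes tested.

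**Figure D1:**
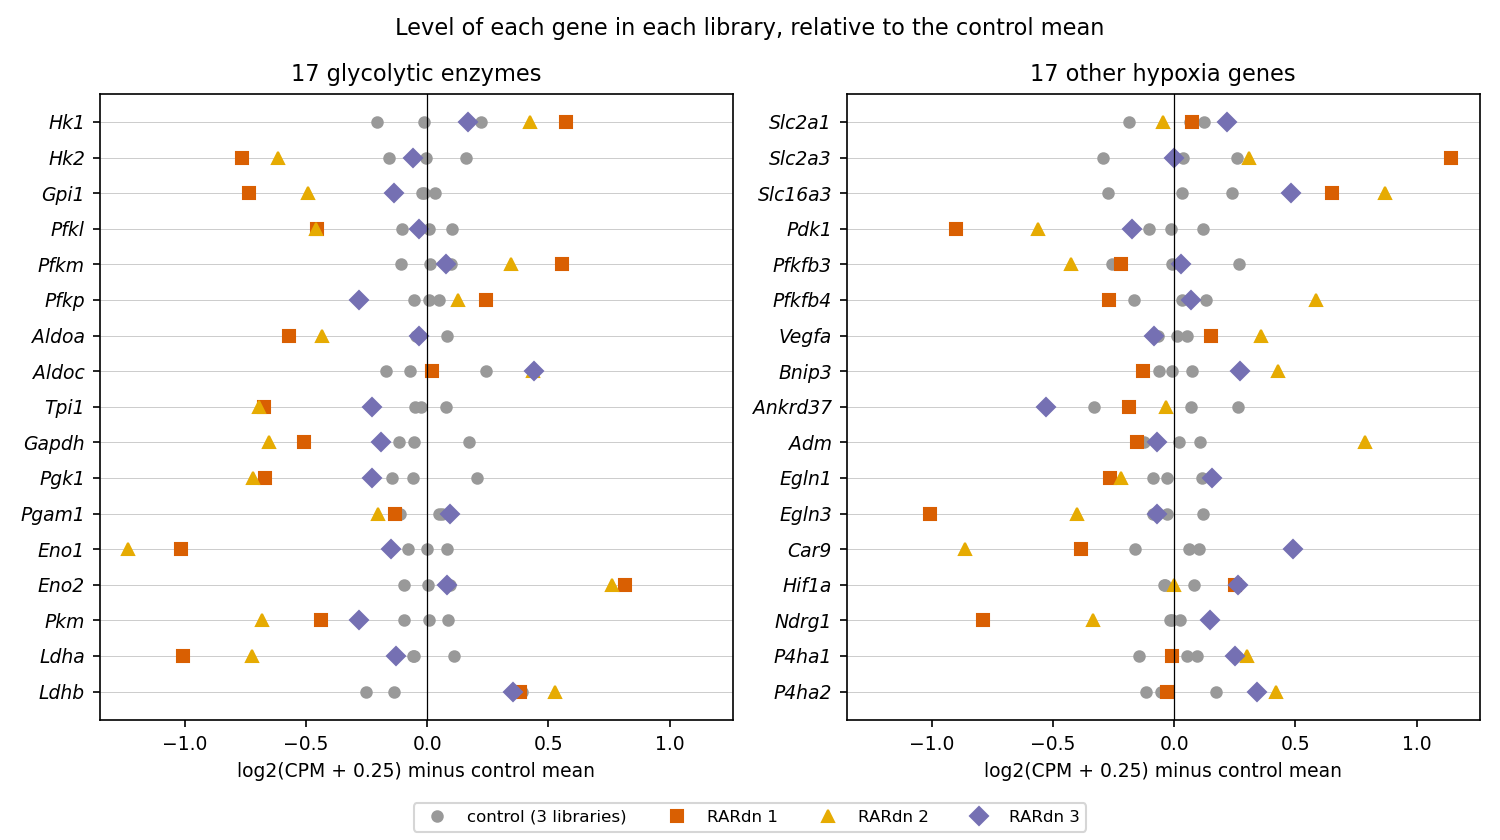
Level of each of the 34 genes in each of the 6 libraries, as log2(CPM + 0.25) minus the control mean, with control libraries as grey circles and the RARdn libraries as coloured squares, triangles and diamonds. Among the enzymes, RARdn 3 (diamonds) lies nearest to the control mean for 15 of 17 genes.

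In TMM-scaled CPM, the lower enzyme levels were concentrated in RARdn 1 and RARdn 2. Summed over the 17 enzymes, CPM was 3723, 3764 and 4108 in control 1, 2 and 3 against 2431, 2484 and 3510 in RARdn 1, 2 and 3. The means were 3865 ± 212 and 2808 ± 608 CPM (SD, n = 3 each). All 3 RARdn sums lay below all 3 control sums, and that of RARdn 3 lay much nearer to them. This nearness depends on the TMM factors, which were 1.22, 0.975 and 0.862 in RARdn 1, 2 and 3. As shares of library counts, without these factors, the enzymes made up 0.370%, 0.378% and 0.400% in control 1, 2 and 3. In RARdn 1, 2 and 3 they made up 0.297%, 0.242% and 0.302%, so that RARdn 3 lay next to RARdn 1. The median enzyme lay at -0.46, -0.46 and -0.058 log2 units from its control mean in RARdn 1, 2 and 3. RARdn 3 was the RARdn library nearest to the control mean for 15 of 17 enzymes and for 10 of the 17 other members, against 41.4% of all genes tested. Summed over the 17 other members, the groups overlapped, at 1159 ± 52.0 CPM in controls against 1063 ± 168 CPM in RARdn libraries. In the sample labels, RARdn 2 and RARdn 3 share a leading number in their descriptions, which RARdn 1 lacks. Whether the enzyme levels follow this number was not tested.

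With RARdn 3 left out, edgeR called 18 of the 34 members (52.9%), 14 lower and 4 higher, and here 14.8% of 20109 genes tested were called (7.84% lower and 6.98% higher). Of the enzymes, 10 fell (Eno1, Ldha, Pgk1, Hk2, Tpi1, Gpi1, Gapdh, Pkm, Aldoa and Pfkl) and 3 rose (Eno2, Hk1 and Pfkm). Of the 17 other members, Pdk1, Egln3, Car9 and Ndrg1 fell and Slc16a3 rose. Leaving out any other single library called no member. These calls therefore rest on the absence of 1 library, and the number of all genes called moved with it, from 767 to 2980. RARdn 3 also had the largest acinar share and RARdn 1 the smallest, and the part of cell makeup in the enzyme levels was not tested. Acinar share was 6.42% in RARdn 1 and 19.0% in RARdn 2, against 16.1% to 17.1% in controls. The acinar markers did not move alike, since 17, 7 and 1 of the 17 lay below their control mean in RARdn 1, 2 and 3.

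**Figure D2:**
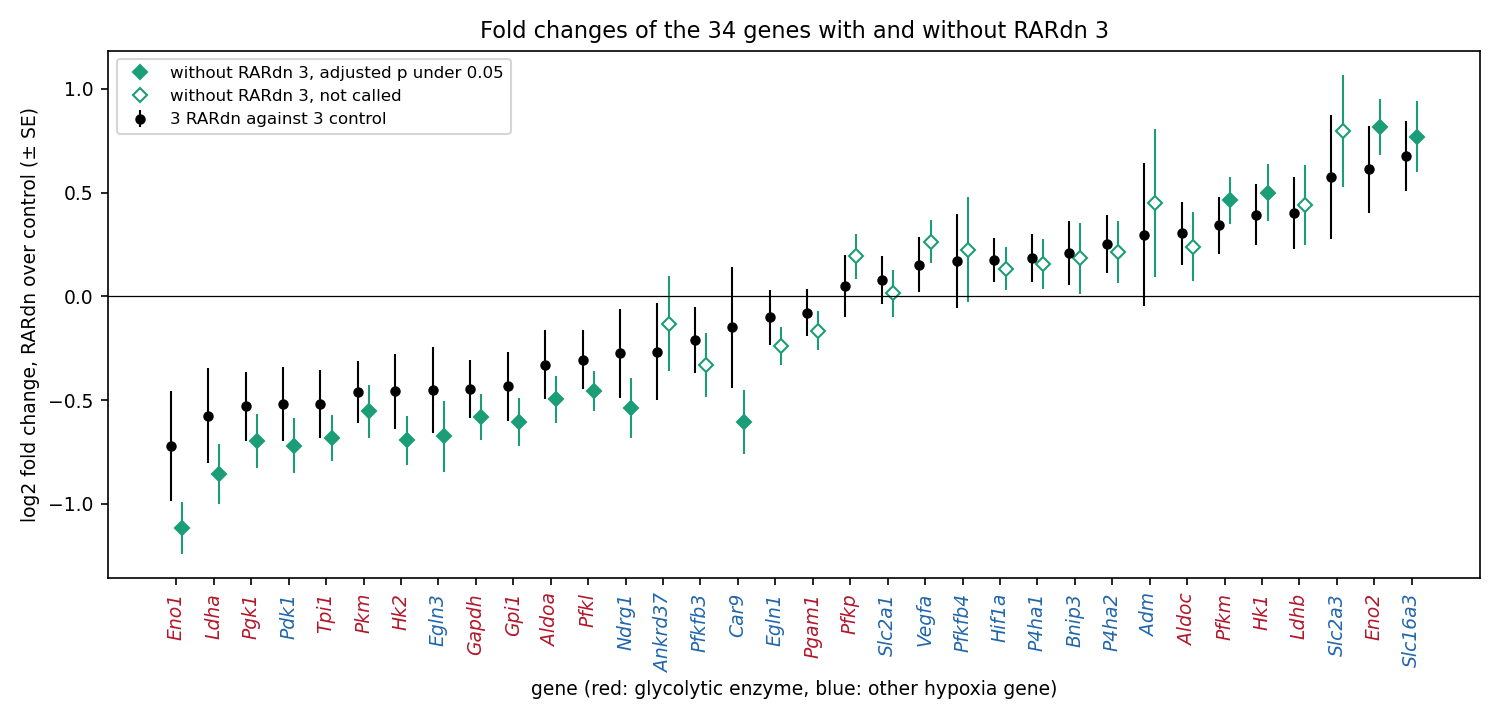
Log2 fold change of RARdn over control with its SE for each of the 34 genes, with all 6 libraries (black circles) and without RARdn 3 (green diamonds, filled where the adjusted p was under 0.05). No gene was called with all libraries, and 18 were called without RARdn 3, 14 of them below 0.

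Eno1, the enolase most cells use (chromosome 4, 150236721 to 150248879, GRCm38), had the log2 fold change farthest below 0 of the 34 genes. It was at 516, 488 and 547 CPM in control 1, 2 and 3 against 256, 220 and 466 CPM in RARdn 1, 2 and 3. The groups did not overlap, and in TMM-scaled CPM RARdn 3 stood close below the controls (log2 fold change -0.72, SE 0.264, adjusted p = 0.158 by edgeR). Without RARdn 3 the log2 fold change was -1.12 (adjusted p = 0.00789). Eno1b, a copy of Eno1 elsewhere in the genome, was at 6.92, 57.1 and 60.3 CPM in control 1, 2 and 3 against 60.6, 54.2 and 5.13 CPM in RARdn 1, 2 and 3. It was low in control 1 and in RARdn 3 alone, and how the authors' counting split reads between the 2 loci is uncertain. Added together, Eno1 and Eno1b were at 523, 546 and 607 CPM in controls against 316, 274 and 471 CPM in RARdn libraries, again without overlap.

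Ldha, the lactate dehydrogenase subunit that dominates in glycolytic tissue (chromosome 7, 46841475 to 46855627), was the most abundant member in controls, at 264 CPM per kilobase of exon. It was at 838, 842 and 944 CPM in control 1, 2 and 3 against 434, 528 and 799 CPM in RARdn 1, 2 and 3. Every RARdn value lay below every control value, RARdn 3 by little (log2 fold change -0.57, SE 0.229, adjusted p = 0.187). Pkm, the pyruvate kinase of most embryonic tissues, was at 472, 507 and 534 CPM in controls against 371, 313 and 415 CPM in RARdn libraries (log2 fold change -0.46, SE 0.151, adjusted p = 0.124). Tpi1, which interconverts the 3-carbon sugars made by aldolase, was at 456, 449 and 491 CPM in controls against 291, 287 and 397 CPM in RARdn libraries. Its log2 fold change was -0.52 (SE 0.163, adjusted p = 0.112), and DESeq2 called it lower (adjusted p = 0.0306). For Pkm and Tpi1 too the groups did not overlap, and in TMM-scaled CPM the highest RARdn library was RARdn 3. That rank depends on the TMM factors, which were 1.22 in RARdn 1 and 0.862 in RARdn 3. How near RARdn 3 lay to the controls for Ldha depends on them too.

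Pgk1, phosphoglycerate kinase and a classical HIF-1 target, was at 208, 220 and 265 CPM in controls against 145, 140 and 196 CPM in RARdn 1, 2 and 3. The groups were apart (log2 fold change -0.53, SE 0.167, adjusted p = 0.112). Gpi1, the isomerase that makes fructose 6-phosphate, was at 330, 332 and 342 CPM in controls against 201, 238 and 304 CPM in RARdn libraries (adjusted p = 0.169). Gapdh, which is often used as a reference gene, was at 80.4, 83.8 and 98.2 CPM in controls against 61.1, 55.3 and 76.4 CPM in RARdn libraries. Its log2 fold change was -0.45 (SE 0.14, adjusted p = 0.110), with no overlap between groups. Gapdh stood at 21.2 CPM per kilobase in controls, below Pgam1, Gpi1 and 6 other enzymes, and it has many processed pseudogenes, which makes its level uncertain. In TMM-scaled CPM, 7 of 17 enzymes were lower without overlap (41.2%), against 13.7% of all genes tested. These were Eno1, Ldha, Pkm, Tpi1, Pgk1, Gpi1 and Gapdh.

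In TMM-scaled CPM, the remaining enzymes with a fold change below 0 had overlapping groups. Aldoa, the main aldolase, was at 431, 434 and 470 CPM in controls against 299, 329 and 434 CPM in RARdn libraries, where RARdn 3 fell within the control range. Pfkl, the liver-type phosphofructokinase subunit, was at 128, 138 and 148 CPM in controls against 100.5, 100.3 and 135 CPM in RARdn libraries, again with RARdn 3 inside the control range. Hk2, the inducible hexokinase, was at 47.4, 52.8 and 59.2 CPM in controls against 31.1, 34.4 and 50.8 CPM in RARdn libraries. Hk2 showed the same placing of RARdn 3 (log2 fold change -0.46, SE 0.181, adjusted p = 0.183). For Aldoa, Pfkl and Hk2, the place of RARdn 3 inside the control range depends on its TMM factor of 0.862, and so does the overlap. Pgam1, phosphoglycerate mutase, stayed nearest to the controls of these genes, with 91.7, 103 and 104 CPM in controls against 90.5, 86.1 and 106 CPM in RARdn libraries (log2 fold change -0.08, SE 0.113).

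The sign of the fold change divided the enzymes by their level. The 10 enzymes with the highest control level per kilobase (20.7 to 264 CPM per kilobase) all had log2 fold changes below 0, from -0.72 to -0.08. The 7 with the lowest level (1.29 to 10.5 CPM per kilobase) had 6 above 0 and only Hk2 below. This division was made after the values were seen and has no test. Over all genes tested, 49.96% had a log2 fold change below 0.

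**Figure D3:**
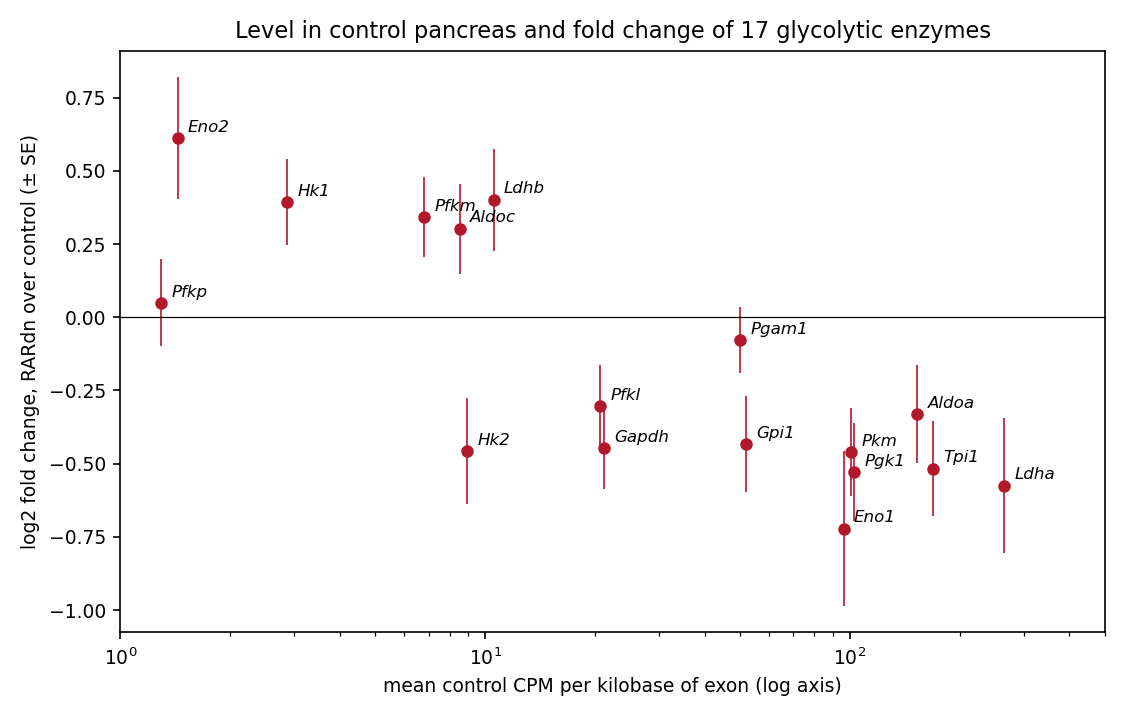
Mean control level per kilobase of exon (log axis, CPM per kilobase) against the log2 fold change with its SE for the 17 glycolytic enzymes. The 10 enzymes above 20 CPM per kilobase all lie below 0, and 6 of the 7 others lie above 0.

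Among the low-abundance isozymes, Eno2, the enolase of neurons and endocrine cells (chromosome 6, 124760053 to 124769673), had the highest fold change of the enzymes. It was at 7.20, 6.75 and 6.30 CPM in controls against 12.1, 11.6 and 7.14 CPM in RARdn 1, 2 and 3. RARdn 3 lay within the control range and the other RARdn libraries above it (log2 fold change 0.61, SE 0.209, adjusted p = 0.135, and 0.0157 without RARdn 3). Hk1, the hexokinase of brain and many other tissues, was at 28.3, 20.98 and 24.1 CPM in controls against 36.3, 32.6 and 27.3 CPM in RARdn libraries (adjusted p = 0.164). Pfkm, the muscle-type phosphofructokinase subunit, was at 24.4, 22.9 and 21.04 CPM in controls against 33.6, 28.9 and 23.99 CPM in RARdn libraries (adjusted p = 0.188). In Hk1 and Pfkm, as in Eno2, only RARdn 3 fell within the control range. Ldhb, the lactate dehydrogenase subunit of oxidative tissue, was at 21.4, 14.7 and 13.6 CPM in controls against 21.2, 23.5 and 20.8 CPM in RARdn libraries. Control 1 stood as high as the RARdn libraries there. Aldoc, the aldolase of brain, was at 26.3, 32.7 and 24.5 CPM in controls against 28.0, 37.4 and 37.6 CPM in RARdn libraries. Pfkp, the platelet-type subunit, was at 16.6 to 17.9 CPM in controls against 20.5, 18.9 and 14.2 CPM in RARdn libraries, so its RARdn values lay on both sides of the controls.

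A ratio of isozymes taken inside 1 library is free of the scaling between libraries. The pairs were chosen with the values known, and the ratios have no test. Eno1 per Eno2, in counts per kilobase, was 62.7, 63.3 and 76.0 in controls and 18.5, 16.53 and 57.04 in RARdn 1, 2 and 3. Ldha per Ldhb was 18.6, 27.1 and 32.9 in controls and 9.69, 10.6 and 18.2 in RARdn libraries. Aldoa per Aldoc was 18.4, 14.9 and 21.5 in controls and 11.96, 9.86 and 12.9 in RARdn libraries. These 3 ratios did not overlap between groups. Hk2 per Hk1 was 2.39, 3.60 and 3.52 in controls and 1.23, 1.51 and 2.66 in RARdn libraries. Pfkl per Pfkm was 2.63, 3.03 and 3.51 in controls and 1.498, 1.74 and 2.81 in RARdn libraries. For the hexokinase and both phosphofructokinase pairs, RARdn 3 lay within or above the control range and RARdn 1 and 2 below it. Endocrine cells are known for Eno2, and the summed endocrine markers (16 genes) were at 3537 to 3967 CPM in controls against 3861, 3812 and 3015 CPM in RARdn 1, 2 and 3. This sum is weighted to abundant hormone genes, of which Ins1 and Ins2 were lower in every RARdn library than in any control. The median endocrine marker lay at 0.48, 0.29 and -0.15 log2 units from its control mean in RARdn 1, 2 and 3. The part of endocrine content in these ratios was not tested.

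**Figure D4:**
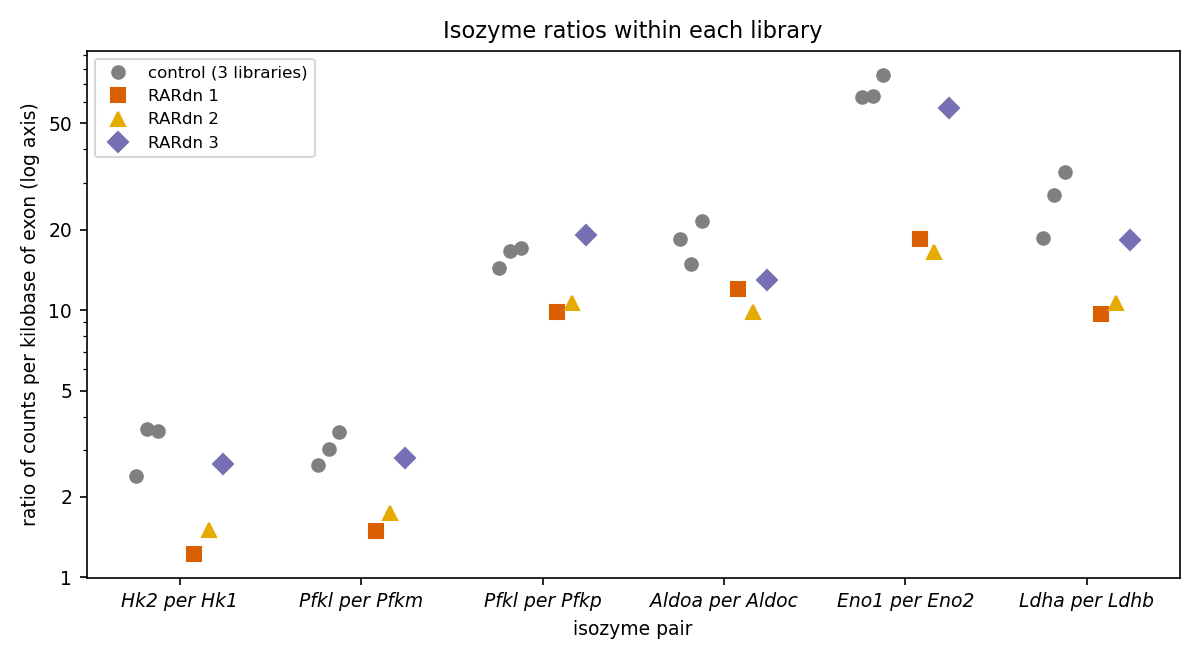
Ratio of counts per kilobase of exon (log axis) between isozymes in each library, with 3 control libraries in grey and RARdn 1, 2 and 3 in colour. RARdn 1 and 2 lie below all controls in all 6 pairs, and RARdn 3 lies below all controls for Aldoa per Aldoc, Eno1 per Eno2 and Ldha per Ldhb only.

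Transporters and regulators of flux went in both directions. Slc16a3, the transporter that exports lactate from glycolytic cells (chromosome 11, 120948480 to 120960868), came nearest to the threshold of all members. It was at 12.2, 8.46 and 10.5 CPM in controls against 16.3, 19.0 and 14.4 CPM in RARdn 1, 2 and 3. Every RARdn library lay above every control (log2 fold change 0.68, SE 0.169, adjusted p = 0.0634), and it was the only member higher without overlap. DESeq2 called it higher (adjusted p = 0.00829), and over all alternatives its adjusted p ran from 0.00829 to 0.235. Pdk1, the kinase that shuts off pyruvate dehydrogenase and so keeps pyruvate from the mitochondria (chromosome 2, 71873224 to 71903858), was at 179, 191 and 209 CPM in controls against 103, 131 and 171 CPM in RARdn libraries. In TMM-scaled CPM, Pdk1 was the only member outside the enzymes that was lower without overlap (log2 fold change -0.52, SE 0.18, adjusted p = 0.139).

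The glucose transporters did not separate the groups. Slc2a1, the basal glucose transporter, was at 51.0, 60.8 and 63.4 CPM in controls against 61.2, 56.3 and 67.7 CPM in RARdn libraries (log2 fold change 0.08, SE 0.116). Slc2a3, a high-affinity transporter, was at 5.001 to 7.44 CPM in controls against 13.9, 7.71 and 6.19 CPM in RARdn libraries, so its higher mean came mostly from RARdn 1. Pfkfb3 and Pfkfb4 make and break down the fructose 2,6-bisphosphate that activates phosphofructokinase. Pfkfb3 was at 50.2 to 72.5 CPM in controls against 44.7 to 61.3 CPM in RARdn libraries, and Pfkfb4 at 6.79 to 8.40 and 6.31 to 11.6 CPM. Both overlapped between groups.

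The 11 regulators and targets of the hypoxia response showed no common shift: 6 had log2 fold changes above 0 and 5 below, with a median of 0.15. In TMM-scaled CPM, all 11 overlapped between groups. For Egln3 and Ndrg1 this overlap depends on the TMM factor of RARdn 3 (0.862). Hif1a, the oxygen-regulated subunit of HIF-1 (mainly controlled through its protein), was at 46.2, 46.3 and 50.5 CPM in controls against 56.6, 47.5 and 57.3 CPM in RARdn libraries (log2 fold change 0.17, SE 0.104, adjusted p = 0.360). Vegfa, the growth factor for blood vessels, was at 133, 144 and 140 CPM in controls against 154, 178 and 131 CPM in RARdn libraries (log2 fold change 0.15, SE 0.132). In TMM-scaled CPM, RARdn 3 had the lowest Vegfa value of all 6 libraries and RARdn 2 the highest. The rank of RARdn 2 above RARdn 1 depends on their TMM factors (0.975 and 1.22). Bnip3, which promotes removal of mitochondria, was at 15.2 to 16.7 CPM in controls against 14.5, 21.5 and 19.3 CPM in RARdn libraries. Ankrd37 and the vasodilator peptide gene Adm were the lowest members of this class, at 2.86 to 5.14 and 1.20 to 2.52 CPM over all libraries, and neither separated the groups.

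The remaining members of this class are the prolyl hydroxylases that sense oxygen, the pH regulator Car9, Ndrg1 and the collagen hydroxylases. Egln1, the main hydroxylase of HIF, was at 86.3, 89.9 and 99.3 CPM in controls against 76.3, 78.6 and 102 CPM in RARdn libraries. Egln3, a hydroxylase that HIF itself induces, was at 79.7, 83.2 and 92.0 CPM in controls against 42.1, 64.1 and 80.6 CPM in RARdn libraries (log2 fold change -0.45, SE 0.205, adjusted p = 0.240, and 0.0391 without RARdn 3). Egln1 per Egln3, in counts per kilobase, was 0.802, 0.801 and 0.800 in controls and 1.34, 0.908 and 0.939 in RARdn 1, 2 and 3. The controls were nearly identical in this ratio and all RARdn libraries lay above them. The ratios of Slc2a1 per Slc2a3, Pfkfb3 per Pfkfb4 and P4ha1 per P4ha2 overlapped between groups. Car9, a carbonic anhydrase on the cell surface and a standard hypoxia marker, was at 67.8, 79.3 and 81.5 CPM in controls against 58.2, 41.6 and 107 CPM in RARdn libraries. RARdn 3 thus had the highest Car9 level and RARdn 2 the lowest of all 6 libraries. Ndrg1, a stress-induced gene, was at 264, 270 and 263 CPM in controls against 154, 211 and 295 CPM in RARdn libraries. In this scaled CPM, RARdn 1 and 2 lay below and RARdn 3 above all controls. The place of RARdn 3 there depends on its TMM factor of 0.862. P4ha1 and P4ha2, which hydroxylate collagen rather than HIF, were at 48.5 to 57.3 and 38.3 to 46.9 CPM in controls against 53.4, 66.2 and 63.9 CPM and 40.7, 55.7 and 52.7 CPM in RARdn 1, 2 and 3. Their fold changes were small (log2 0.18, SE 0.115, and 0.25, SE 0.138), and the summed level of the 11 mesenchyme markers was higher in every RARdn library than in any control. Of these 11 markers, 8 were higher without overlap, against 13.9% of all genes tested. The part of mesenchyme content in the P4ha1 and P4ha2 levels was not tested.

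Lists of related genes gave few calls. Of 34 other genes of glycolysis and pyruvate use, 32 were tested and edgeR called 0, although 3 were higher and 6 lower at an unadjusted p under 0.05 (12% and 10.2% of all genes tested were), and DESeq2 called 3 higher and 4 lower (3.99% and 5% of its genes were). Their median log2 fold change was -0.12. Pgm1, which links glycogen to glycolysis, was at 107, 113 and 123 CPM in controls against 63.7, 65.0 and 98.3 CPM in RARdn 1, 2 and 3 (log2 fold change -0.60, adjusted p = 0.0880), with no overlap. Pdha1, a subunit of pyruvate dehydrogenase, was at 105 to 115 CPM in controls against 86.4, 88.7 and 128 CPM in RARdn libraries.

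The pentose phosphate pathway branches from glycolysis and supplies NADPH and ribose. All 7 of its genes had log2 fold changes below 0, with a median of -0.37, and 1 fell: Rpia, which makes ribose 5-phosphate, at 30.8, 34.4 and 34.01 CPM in controls against 23.8, 24.3 and 25.2 CPM in RARdn libraries (log2 fold change -0.43, SE 0.0961, adjusted p = 0.0448). Genes called lower made up 2.65% of all genes tested. Tkt, transketolase, was at 280, 321 and 327 CPM in controls against 205, 198 and 322 CPM in RARdn libraries. That was the placing of libraries seen for the enzymes of glycolysis, and it depends on the TMM factors. As shares of library counts, the 7 pentose phosphate genes made up 0.0874% to 0.0941% in controls. In RARdn 1, 2 and 3 they made up 0.0725%, 0.0593% and 0.0772%. Of 38 other hypoxia genes, 37 were tested and 1 rose (1.37% of all genes tested were called higher): Plod1, a lysyl hydroxylase for collagen, at 55.7, 49.9 and 48.9 CPM in controls against 71.4, 70.3 and 65.2 CPM in RARdn libraries (log2 fold change 0.42, SE 0.0949, adjusted p = 0.0464). In that list 10 genes were higher and 1 lower at an unadjusted p under 0.05 (12% and 10.2% of all genes tested were), with a median log2 fold change of -0.02. Hif3a, an inhibitory HIF subunit, was at 301, 339 and 353 CPM in controls against 244, 236 and 337 CPM in RARdn libraries (adjusted p = 0.361). The calls of Rpia and Plod1 were lost when any library other than RARdn 3 was left out, with adjusted p from 0.0579 to 0.233. Both were also lost with library totals, a term for sex and a correction for GC content and length (adjusted p up to 0.316 for Rpia and 0.357 for Plod1), and Rpia without the filter (0.0533) and Plod1 with limma-voom (0.0521).

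**Figure D5:**
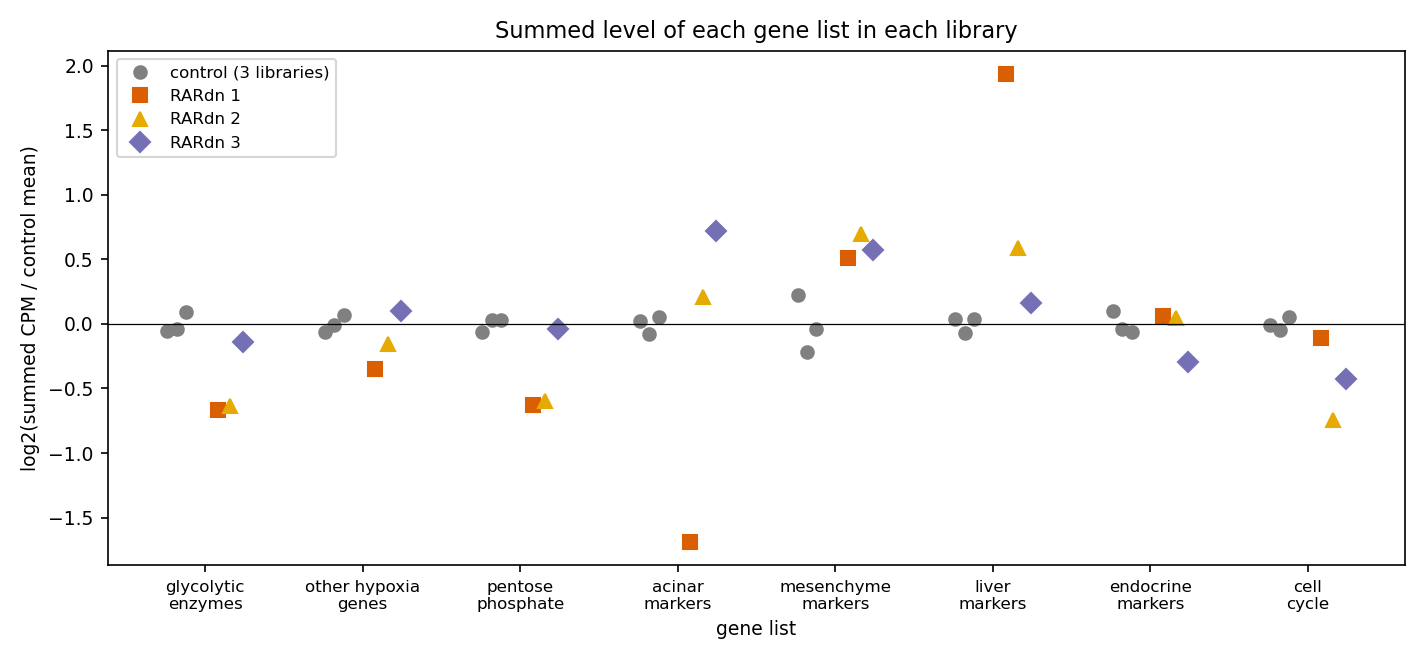
Summed CPM of 8 gene lists in each library, as log2 of the ratio to the control mean, with control libraries in grey and RARdn 1, 2 and 3 in colour. In this TMM-scaled CPM, enzymes of glycolysis and of the pentose phosphate pathway lie lowest in RARdn 1 and 2, while acinar markers lie low in RARdn 1 only. As shares of library counts, both enzyme lists lie below all controls in RARdn 3 too (0.302% and 0.0772%).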

How the data were processed

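RNA was sequenced from 3 control and 3 RARdn whole pancreata. The deposited files hold raw read counts per gene symbol. Per the submitters' processing notes, the tools were FastQC, cutadapt, HISAT2, HTSeq, bedtools and DESeq2 and the builds mm10 and GRCm38. Its annotation, strand setting and filters remain not given in the sources used here. The 5 summary lines held 25.4% to 31.5% of reads and were left out. Exons of 14 members overlap exons of another gene in GENCODE M21 (Hk1, Gpi1, Pfkm, Pfkp, Aldoa, Tpi1, Gapdh, Pkm, Slc2a1, Bnip3, Ankrd37, Car9, Hif1a and Ndrg1), so their counts are uncertain.

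Genes were filtered with filterByExpr, scaled with TMM and tested with edgeR 4.0.16 (R 4.3.3, 2-sided quasi-likelihood test, genotype as the only term). Adjusted p-values are Benjamini-Hochberg values over 19070 genes, and a gene was called under 0.05. SE was taken as the size of the log2 fold change divided by the root of its F statistic. Exon lengths are unions of GENCODE M21 exons. On counts simulated for this comparison (18663 genes tested), 41.8% of genes changed 1.5-fold, 79.1% of those changed 2-fold and 98.5% of those changed 4-fold were recovered. The changed genes were drawn above a low-count limit, and the spread followed its trend over abundance. No difference in cell makeup between libraries was simulated, so these rates may not hold for the real libraries. Alternatives used DESeq2 1.42.0 and limma 3.58.1 (voom). Members and lists were chosen with earlier results of these data known. All members were named, and from each related list the called genes, filled up to 2 with the most abundant. Litters and days of dissection are not stated in the labels, so the p-values reflect only how far these 6 samples spread, in part perhaps for technical reasons.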

Additional observations from a re-analysis of the deposited data

How the results depend on the processing

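Over 16 alternatives, the number of all genes called was 767 with the reported settings, 474 with library totals, 2346 without a filter, 2245 with DESeq2, 61 with a term for sex and 100 to 2980 when 1 library was left out. Members called higher numbered 2 without a filter, 1 with DESeq2 and 0 to 4 with 1 library left out, and those called lower 3 with DESeq2 and 0 to 14 with 1 library left out. The other alternatives called none. The median of the enzymes ran from -0.50 to -0.20 and that of the other members from 0.04 to 0.19. Signs changed only for genes not called with all libraries, of which Car9 and Pdha1 were called lower without RARdn 3 (adjusted p = 0.0382 and 0.0497). With 1 library left out, log2 fold changes ran from -0.036 to 0.19 for Pfkp, -0.0080 to 0.15 for Slc2a1, -0.10 to 0.38 for Pfkfb4, -0.13 to 0.52 for Adm, -0.24 to 0.0074 for Egln1, -0.61 to 0.12 for Car9 and -0.31 to 0.017 for Pdha1. Ankrd37 stood at 0.11 with the sex term. No member changed sign under another scaling, which moved the median of all genes by at most 0.041. The place of RARdn 3 among the libraries did depend on the scaling. Adding counts of named copies to their parent genes, chosen after seeing the data, gave Eno1 a log2 fold change of -0.66 (adjusted p = 0.114). Same-numbered libraries shared no pattern (correlations of deviations 0.0129, -0.0135 and 0.126). The fit with the replicate number as a block called 817 genes and no member, with enzyme and other medians of -0.35 and 0.13. It gave Rpia and Plod1 adjusted p = 0.0668 and 0.0589 and Pgm1 0.0407. At 3 against 3, changes near 1.5-fold were often missed in simulated counts.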
